A study of Mus with 4 samples.

Results

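The transcription factors and co-factors that hold nephron progenitor cells (NPCs) in the undifferentiated state were followed through a comparison of NPCs with and without the prorenin receptor (PRR). The set holds 9 genes: *Six2*, *Cited1*, *Osr1*, *Sall1*, *Eya1*, *Pax2*, *Wt1*, *Meox1* and *Meox2*. All probes whose accession on the array belongs to 1 of these genes were taken, whatever their values, which gave 12 of 41174 probes and 9 of 16358 gene symbols. *Osr1*, *Meox1* and *Meox2* have 2 probes each, here told apart as the brighter and the dimmer probe, and the other 6 genes have 1 probe each. The probes of *Pax2* and *Wt1* were printed in 10 spots per array and the others in 1, so that the set covers 30 spots on each array.

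NPCs form the cap mesenchyme, a layer of cells around each tip of the ureteric bud. They either renew themselves, which depends on Six2 and its partners, or answer Wnt signals from the bud, turn into epithelium and form a nephron. A kidney stops making nephrons when this pool of cells is used up, and loss of several of these factors ends nephron formation early.

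In mutant mice (*Mut*, Six2 CreEGFP+; PRR flox/flox) the floxed *PRR* gene is deleted by Cre recombinase, which is driven together with EGFP by *Six2* regulatory sequence. Control mice (*WT*, Six2 CreEGFP+; PRR+/+) carry the same transgene and intact *PRR*, so Cre and EGFP are present in both groups. EGFP-positive cells were sorted from kidneys on embryonic day 15.5, and since *Six2* sequence drives the EGFP that defines the gate, the *Six2* level of the sorted cells is tied to the sort itself. RNA of 3 *Mut* pools in Cy3 (green) and 3 *WT* pools in Cy5 (red), each made from several kidneys, was hybridized pairwise on arrays 1, 2 and 3, and array 4 compared 2 of the *WT* pools, pool 2 labelled green and pool 1 labelled red (the *WT* vs *WT* array). The methods call the pools random, and nothing says that they come from separate litters, so the *P* values reach no further than these pools. Dyes were not exchanged on arrays 1 to 3, and genotype and dye cannot be told apart there. A level below is the normalized log2 signal of 1 channel, a log ratio is log2 Cy3/Cy5 on 1 array, and every adjusted *P* comes from limma, with the Benjamini-Hochberg method applied to all 41166 probes tested. In limma the variance of a probe is drawn towards that of all probes, so its *P* does not measure the spread of that probe alone. From the 3 log ratios alone the SE was 0.223 for the dimmer *Osr1* probe and 0.012 for *Cited1*, against 0.106 and 0.051 in limma. A call was made when a probe differed by more than 1.5-fold at an adjusted *P* below 0.05. In pooled cells, fewer cells of a type and less RNA per cell cannot be told apart.

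Between 45.1% and 51.1% of all probes were well above background in Cy3 and between 54.1% and 58.3% in Cy5, by the scanner program's flag, and 0 spots were saturated. The deleted gene, *Atp6ap2*, had log ratios of -0.08, -0.19 and -0.25 on arrays 1 to 3 (adjusted *P* = 0.0351, limma) and of -0.19 between *WT* pools on array 4, so this probe is no check of the dye labels, and the direction of each ratio was taken from them. The loss of *PRR* was checked by qRT-PCR in the study, and those data are not analysed here. Levels on array 4 stood apart from those of the same *WT* pools on arrays 1 and 2. The RNA labelled *WT* pool 1 in Cy5 differed by over 0.2 in log2 level between arrays 1 and 4 at 6 of the 12 probes, although both *WT* channels of array 4 lay within 0.2 of each other at all 12. A direct comparison within array 4 thus differs from a comparison of its levels with those of other arrays, and both are given where they matter.

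The label of the cells was first checked against 11 other genes known from NPCs, among them *Crym*, *Rspo1* and *Uncx*. All 11 were well above background in *Mut* and *WT*. Their summed linear level was between 26042 and 27125 in the *Mut* pools, between 30708 and 31275 in the *WT* pools of arrays 1 to 3, and 26865 and 28957 in Cy3 and Cy5 of array 4. This sum is set mostly by *Crym* and *Rspo1*, with mean log2 signals of 13.8 and 13.1, where the next brightest gene, *Itga8*, had 10.3. Of the defining podocyte genes, *Nphs1* and *Podxl* were not well above background in either group.

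Among the 12 probes, *Mut*/*WT* was below 1 at 9 and above 1 at 3, and of these the probe of *Eya1* and the brighter probe of *Meox2* turned lower and that of *Pax2* turned higher with median centring in place of loess, which moved bright probes as a whole to a median of -0.45. The dimmer probes of *Meox1* and *Osr1* were called lower in *Mut*, which is 2 of 12 (16.7%) against 1.46% of all probes, and 0 were called higher, against 0.551% of all probes. By the adjusted *P* alone, 6 probes of 4 genes were lower (both *Meox1* probes, both *Osr1* probes, *Sall1* and *Six2*) among the 12, against 16.4% of all probes, and *Eya1* was higher, against 13.2% of all probes. All *Mut* levels lay below all *WT* levels of arrays 1 to 3 at 8 probes, where 20.6% of all probes did so, and above them at 1 probe, where 17.4% of all probes did so. The median log2 *Mut*/*WT* of the 12 probes was -0.14, and that of all probes was -0.00. The probes of a gene are not independent, and the 12 probes share the same arrays.

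**Figure D1:**
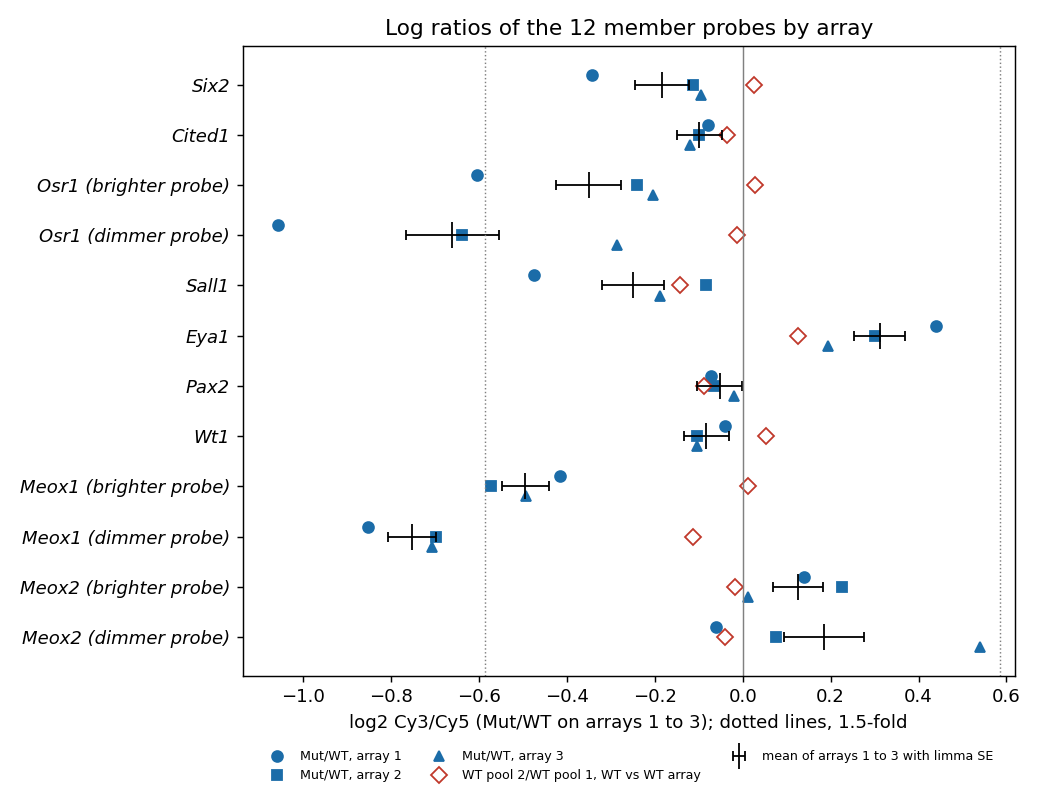
Log2 Cy3/Cy5 of each of the 12 probes (horizontal axis, log2 units) on arrays 1 to 3, where it is *Mut*/*WT* (blue circles, squares and triangles), and on the *WT* vs *WT* array, where it is pool 2 over pool 1 (open red diamonds). Black bars give the mean of arrays 1 to 3 with its limma standard error and dotted lines mark 1.5-fold. The dimmer probes of *Osr1* and *Meox1* have means of -0.66 and -0.75, beyond the 1.5-fold line, while all 12 red diamonds lie between -0.14 and 0.13.

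*Six2* encodes the homeodomain protein that keeps cap mesenchyme cells from entering the nephron pathway. Its probe (A_51_P354224, Entrez gene 20472) had levels of 9.95, 9.99 and 10.12 in *Mut* pools 1, 2 and 3 and of 10.29, 10.10 and 10.21 in the *WT* pools of arrays 1, 2 and 3. The lowest *WT* level lay below the highest *Mut* level, so the groups overlapped, though *Mut* was the lower channel on each of the 3 arrays. On array 4, *WT* pool 2 was at 10.06 and *WT* pool 1 at 10.03, inside the range of the *Mut* pools.

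The log ratios of *Six2* were -0.34, -0.11 and -0.09, with a mean of -0.18 ± 0.14 (SD, *n* = 3 arrays). *Six2* fell by this small amount at an adjusted *P* of 0.0402 (SE 0.061, 95% interval -0.32 to -0.05). Array 1 held the largest ratio, and without it the mean was -0.10 with an adjusted *P* of 0.306. The adjusted *P* was 0.0797 without array 2 and 0.0855 with the channels taken as unpaired.

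*Cited1* encodes a transcriptional co-regulator without a DNA-binding domain, found in the least committed part of the cap mesenchyme. Its levels (A_51_P255365, Entrez gene 12705) were 11.48, 11.41 and 11.38 in the *Mut* pools and 11.56, 11.51 and 11.49 in the *WT* pools. The groups did not overlap but lay next to each other, and the *WT* pools on array 4 were at 11.45 and 11.49. The log ratios of -0.08, -0.10 and -0.12 were close to each other, and their mean of -0.10 ± 0.02 (SD, *n* = 3 arrays) did not pass the test (adjusted *P* = 0.169, limma). The 95% interval ran from -0.21 to 0.01.

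*Osr1*, a zinc finger factor of the intermediate mesoderm that is needed to keep the cap mesenchyme, was lower in *Mut* with both probes (Entrez gene 23967). The dimmer probe (A_51_P216652) had levels of 8.67, 8.75 and 9.21 in *Mut* and of 9.73, 9.39 and 9.49 in *WT*. The brighter probe (A_52_P63728) had levels of 10.26, 10.25 and 10.37 in *Mut* and of 10.86, 10.49 and 10.57 in *WT*. With both probes every *Mut* pool lay below every *WT* pool of arrays 1 to 3, and the *WT* pools of array 4 lay between them, at 9.32 and 9.33 with the dimmer probe and at 10.47 and 10.44 with the brighter one.

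The log ratios of the dimmer *Osr1* probe were -1.06, -0.64 and -0.29, with a mean of -0.66 ± 0.39 (SD, *n* = 3 arrays). It was 1.58-fold lower in *Mut* (SE 0.106, adjusted *P* = 0.00074, limma). The brighter probe had log ratios of -0.60, -0.24 and -0.20 and a mean of -0.35 ± 0.22 (SD, *n* = 3 arrays), with an adjusted *P* of 0.00396 and a fold change under the minimum. With both probes array 1 showed the largest difference and array 3 the smallest. Without array 1 the mean of the dimmer probe was -0.46, under the fold minimum, and that of the brighter probe -0.22.

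*Sall1*, a zinc finger factor that works with Six2 in the cap mesenchyme, had levels of 7.15, 7.32 and 7.38 in *Mut* and of 7.63, 7.40 and 7.57 in *WT* (A_52_P423574, Entrez gene 58198). The groups did not overlap, though the highest *Mut* level was next to the lowest *WT* level, and the *WT* channels of array 4 were at 7.41 and 7.55. The log ratios were -0.48, -0.08 and -0.19, and *Sall1* fell by 0.25 on the log2 scale (SD 0.20, *n* = 3 arrays, SE 0.070, adjusted *P* = 0.0201, limma). The *WT* vs *WT* array gave -0.14, farther below 0 than array 2. Without array 1 the mean was -0.14, with an adjusted *P* of 0.162.

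*Eya1*, a phosphatase and co-activator that binds the Six2 protein, was the single gene above 1 among those past the adjusted *P*. Its levels (A_52_P36315, Entrez gene 14048) were 12.23, 12.21 and 12.10 in *Mut* and 11.78, 11.91 and 11.90 in *WT*. Every *Mut* pool was above every *WT* pool of arrays 1 to 3, and the *WT* pools of array 4 were at 12.08 in Cy3 and 11.96 in Cy5, above all the other *WT* levels. The log ratios were 0.44, 0.30 and 0.19, and *Eya1* rose by 0.31 ± 0.12 (SD, *n* = 3 arrays, SE 0.059, adjusted *P* = 0.00207, limma), and was at -0.34 with median centring in place of loess, a setting that put the median of bright probes at -0.45, below *Eya1*. The *WT* vs *WT* array showed 0.13 in the same direction. The change was 1.24-fold, under the fold minimum. The paper lists *Eya1* among genes lower in *Mut*, the opposite direction, and the reason was not tested.

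*Pax2*, the paired-box factor of early kidney lineages, was close to background. On arrays 1 to 3, most of its 10 spots were flagged as well above background in *WT* each time and in *Mut* on none. The levels were 6.44, 6.44 and 6.47 in *Mut*, 6.51, 6.51 and 6.49 in *WT*, and 6.51 and 6.59 on array 4. The groups did not overlap, and *WT* was at least 1.03-fold higher than *Mut* when the mean *WT* level of 6.50 was set against a floor of 6.45, the dimmest signals well above background, a bound open to dye bias. The log ratios of -0.07, -0.06 and -0.02 had a mean of -0.05 ± 0.03 (SD, *n* = 3 arrays, adjusted *P* = 0.473, limma), which turned to 0.02 with median centring and 0.03 with a dye term. The *WT* vs *WT* array gave -0.09 for this probe (A_51_P375526, Entrez gene 18504), farther from 0 than any of the *Mut* vs *WT* arrays.

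*Wt1* encodes a zinc finger factor that cap mesenchyme needs to survive and that podocytes express strongly (A_52_P673458, Entrez gene 22431). Its levels were 11.17, 11.12 and 11.12 in *Mut* and 11.21, 11.22 and 11.23 in *WT*. The groups did not overlap, yet both *WT* channels of array 4, at 11.06 and 11.01, lay below all of them. The log ratios of -0.04, -0.10 and -0.10 gave a mean of -0.08 ± 0.04 (SD, *n* = 3 arrays, adjusted *P* = 0.251, limma). The 95% interval ran from -0.20 to 0.03, and *Wt1* did not pass the test.

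The replicate spots of *Wt1* and *Pax2* show how well 1 probe repeats within an array. On arrays 1 to 4 the SD of log2 Cy3/Cy5 over the *Wt1* spots was 0.045, 0.054, 0.045 and 0.046, over 10, 8, 7 and 10 spots left after outlier flags. Over the *Pax2* spots it was 0.114, 0.068, 0.072 and 0.084. The dim *Pax2* probe scattered more than the bright *Wt1* probe on each array. Spots of a probe are technical repeats and were averaged before any test. The other 10 probes have 1 spot, so no such error can be given for them.

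**Figure D2:**
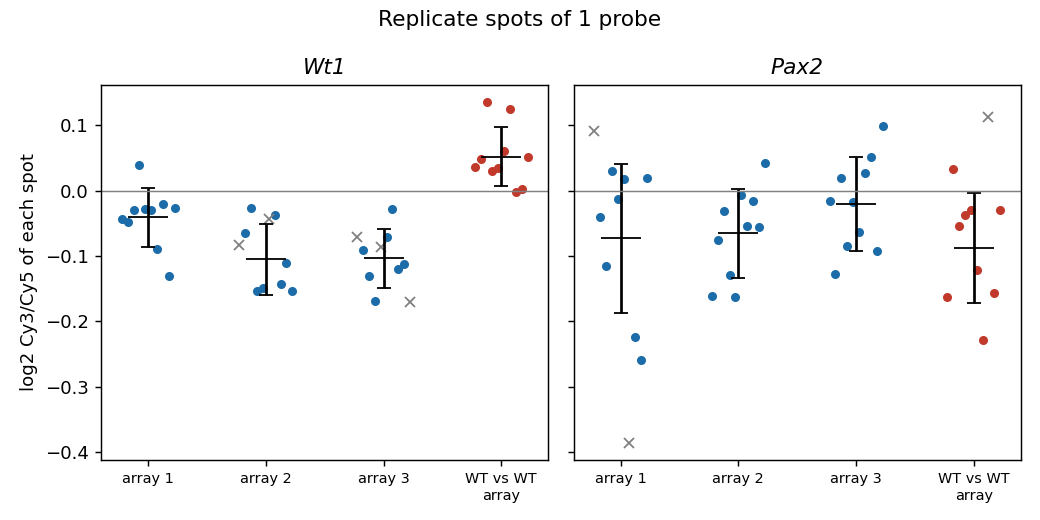
Log2 Cy3/Cy5 of each spot (vertical axis, log2 units) of the *Wt1* probe (left) and the *Pax2* probe (right) on the 3 *Mut* vs *WT* arrays (blue) and the *WT* vs *WT* array (red). Black bars give the mean and SD over the spots used, and grey crosses are spots flagged as outliers and left out. *Wt1* spots have an SD between 0.045 and 0.054 on each array, and *Pax2* spots between 0.068 and 0.114.

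*Meox1*, a homeobox gene of somites and cap mesenchyme, was lower in *Mut* by similar amounts on all 3 arrays (Entrez gene 17285). The dimmer probe (A_52_P327923) had levels of 7.61, 7.62 and 7.68 in *Mut* and of 8.46, 8.32 and 8.39 in *WT*. All *Mut* levels were below all *WT* levels of arrays 1 to 3, by more than the spread within either group. The log ratios were -0.85, -0.70 and -0.71, and the probe was 1.68-fold lower in *Mut* (mean -0.75 ± 0.09, SD, *n* = 3 arrays, SE 0.055, adjusted *P* = 4.43e-06, limma).

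The brighter *Meox1* probe (A_51_P463536) had levels of 9.47, 9.33 and 9.27 in *Mut* and of 9.88, 9.90 and 9.76 in *WT*. Again the groups did not overlap. The log ratios were -0.42, -0.57 and -0.49, with a mean of -0.49 ± 0.08 (SD, *n* = 3 arrays, SE 0.054, adjusted *P* = 6.13e-05, limma). This is 1.41-fold lower, under the fold minimum, and with the median over both probes *Meox1* had -0.62 and was called (adjusted *P* = 6.8e-05, limma). Each array left out in turn kept the dimmer probe called.

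The *WT* vs *WT* array gave *Meox1* log ratios of -0.11 with the dimmer and 0.01 with the brighter probe, so the pools of *WT* hardly differed when they shared an array. Their levels on array 4 were nevertheless far from those on arrays 1 and 2. With the dimmer probe *WT* pool 2 in Cy3 was at 7.75 and *WT* pool 1 in Cy5 at 7.86, and with the brighter probe both were lower than every *Mut* pool, at 9.18 and 9.17. *WT* pool 1 was lower on array 4 than on array 1 by 0.60 and 0.72 with the dimmer and brighter probe, in the same dye. *Mut* in Cy3 minus *WT* pool 2 in Cy3 was -0.11 and 0.17. Within arrays 1 to 3 *Meox1* was thus lower in *Mut* with both probes, whereas against the Cy3 level of array 4 the dimmer probe was lower by less and the brighter probe was higher.

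*Meox2*, the paralog of *Meox1*, did not pass the test with either probe on all 3 arrays (Entrez gene 17286). The brighter probe (A_51_P383001) had levels of 9.11, 9.01 and 8.79 in *Mut*, 8.97, 8.78 and 8.78 in *WT* and 8.79 and 8.80 on array 4. The groups overlapped, and the log ratios of 0.14, 0.23 and 0.01 had a mean of 0.13 ± 0.11 (SD, *n* = 3 arrays, adjusted *P* = 0.12, limma), which was -0.40 with median centring, above the bright-probe median of -0.45. The dimmer probe (A_52_P326096) was well above background on 1 of 3 arrays in *Mut* and on 3 of 3 in *WT*.

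Levels of the dimmer *Meox2* probe were 6.52, 6.61 and 7.69 in *Mut* and 6.58, 6.53 and 7.15 in *WT*. Both channels were high on array 3 and near background on the others, including array 4 (6.52 and 6.56), and the brighter probe showed no such rise on array 3. The log ratios of -0.06, 0.08 and 0.54 had a mean of 0.18 ± 0.31 (SD, *n* = 3 arrays, adjusted *P* = 0.151, limma). This probe has 1 spot. Its mean was 0.01 without array 3 (adjusted *P* = 0.946) and 0.31 without array 1, where it passed the adjusted *P* (0.00161) but not the fold minimum. The brighter probe had an adjusted *P* of 0.0312 without array 3.

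**Figure D3:**
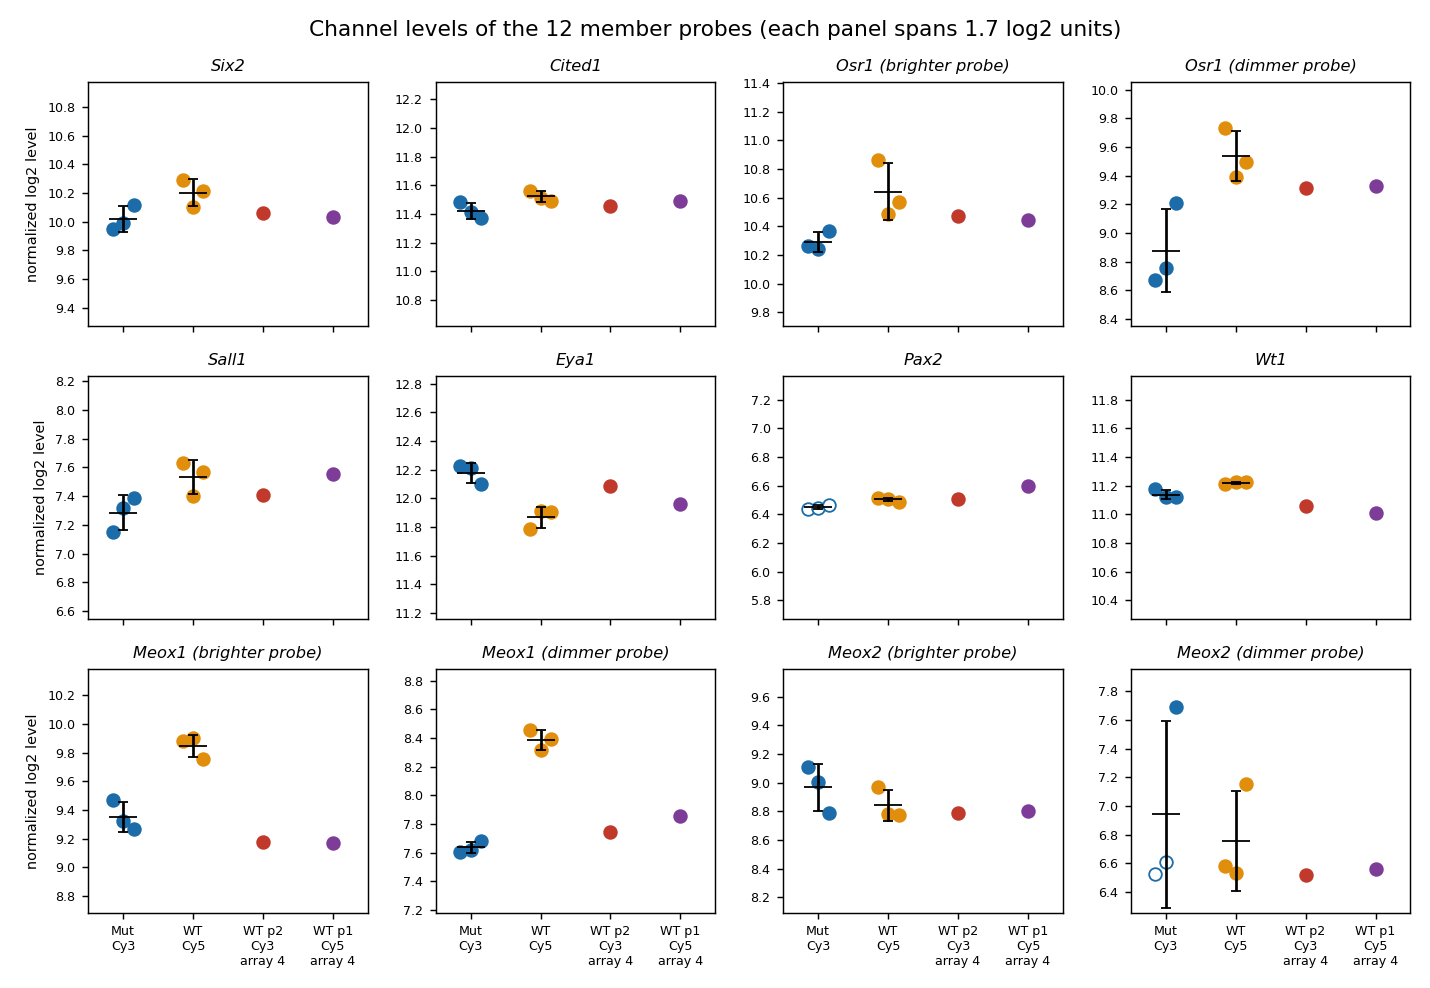
Normalized log2 level (vertical axis, the same span in each panel) of the 12 probes in the *Mut* pools in Cy3 (blue) and the *WT* pools in Cy5 (orange) of arrays 1 to 3, with mean and SD, and in *WT* pool 2 in Cy3 (red) and *WT* pool 1 in Cy5 (purple) of array 4. Open symbols mark channels not well above background. For *Meox1* the *WT* pools of arrays 1 to 3 are above all *Mut* pools with both probes, while those of array 4 lie at 9.18 and 9.17 with the brighter probe, below every *Mut* pool.

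Median centring in place of loess moved the median log2 *Mut*/*WT* of the 17880 probes well above background in all 8 channels from -0.00 to -0.45, so values under it are to be read against that shift. The median of the 9 genes by their brightest probes went from -0.10 to -0.71, and that of the other NPC genes from -0.16 to -0.59. Single genes outside the set moved as far, with *Crym* going from -0.28 to -0.99 and *Rspo1* from -0.28 to -0.97. The move is thus not particular to the 9 genes.

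Since *Mut* was always in Cy3, each probe was also fitted with a dye term, which is set by the single *WT* vs *WT* array. In that fit 0.571% of all probes were lower and 0.534% higher by the adjusted *P* alone. Of the 12 probes, 1 was lower, the dimmer *Meox1* probe at -0.64 (adjusted *P* = 0.018, limma), and 0 were higher. The brighter *Meox1* probe was at -0.51 (adjusted *P* = 0.0513), the *Osr1* probes at -0.65 and -0.38 (adjusted *P* = 0.185 and 0.263), *Six2* at -0.21 (adjusted *P* = 0.468), *Sall1* at -0.10 (adjusted *P* = 0.792) and *Eya1* at 0.19 (adjusted *P* = 0.515). The sign of the mean was kept at 11 of 12 probes, with *Pax2* as the exception. Compared in the same dye, the mean *Mut* level minus *WT* pool 2 of array 4 was between -0.44 (dimmer *Osr1* probe) and 0.42 (dimmer *Meox2* probe), so no probe differed by 1.5-fold in that comparison.

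**Figure D4:**
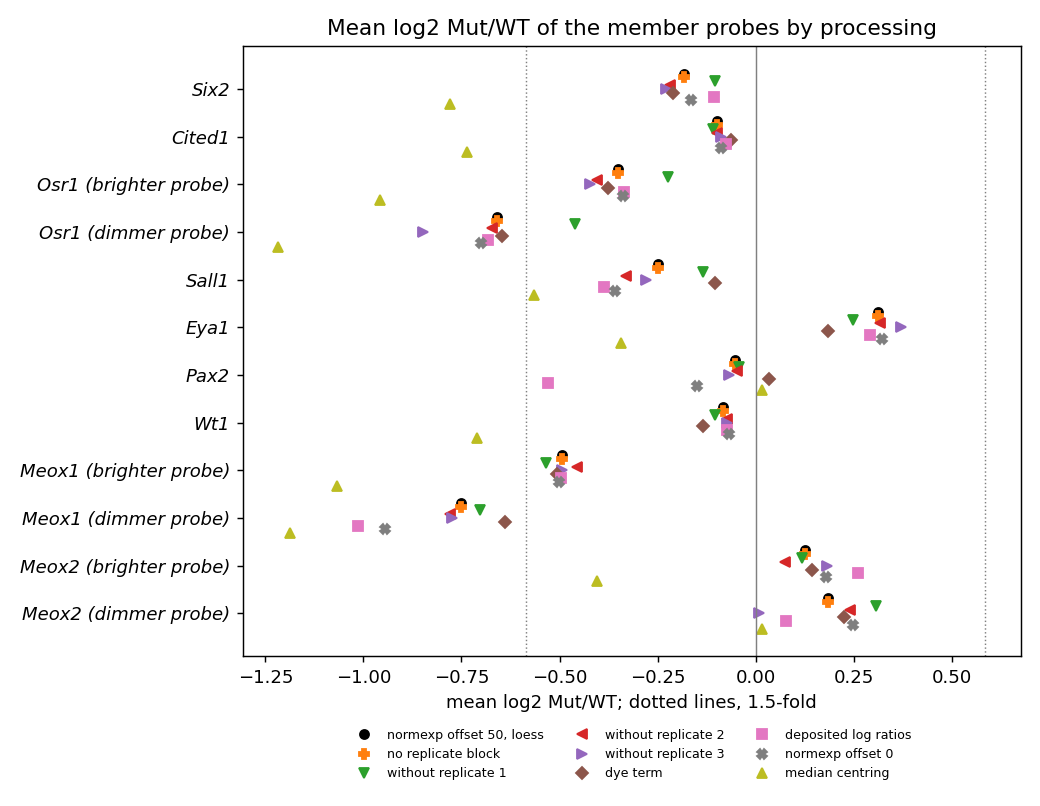
Mean log2 *Mut*/*WT* of each probe (horizontal axis, log2 units) under each way of processing, 1 symbol per setting, with dotted lines at 1.5-fold. Median centring (olive triangles) moves most probes to lower values, which puts *Eya1* at -0.34 and the brighter *Meox2* probe at -0.40 where bright probes have a median of -0.45. *Pax2*, which is not among those bright probes, is at 0.02 where all probes have a median of 0.01. Both *Meox1* and both *Osr1* probes stay below 0 in every setting.

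Levels of the 12 probes were also set against each other over the 8 channels, as a description of points that share arrays and dyes. Of 66 pairs of probes 43 had a Pearson *r* above 0, with a median of 0.266. The 2 *Osr1* probes had *r* = 0.911 and the 2 *Meox1* probes *r* = 0.861, while the 2 *Meox2* probes had *r* = -0.392. *Six2* followed the brighter *Osr1* probe (*r* = 0.916), and *Eya1* ran opposite to the dimmer *Osr1* probe (*r* = -0.947). Among 12501 probes of other genes well above background in all 8 channels, the levels most like those of *Six2* were those of *Men1* (*r* = 0.987), *Slc5a3* (*r* = 0.973) and *Stox2* (*r* = 0.972). The levels most like those of the dimmer *Osr1* probe were those of *Mark3*, *Arf1* and *Ogdh* (*r* = 0.996, 0.996 and 0.994). For the dimmer *Meox1* probe they were *Psap*, *Hmga2* and *Kifc5b* (*r* = 0.997, 0.994 and 0.994).

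Paralogs and binding partners of the 9 genes were described next, with the brightest probe of each gene. Of 18 genes (relatives of *Six2*, *Eya1*, *Sall1*, *Cited1*, *Pax2* and *Osr1*, with the *Hox11* and *Dach* genes) 17 were matched, 7 of them above and 10 below a *Mut*/*WT* of 1, with a median log2 of -0.02. By the adjusted *P* alone *Cited2*, *Dach1* and *Pax8* rose (3 genes) and *Eya2* and *Hoxd11* fell (2 genes), against 13.2% higher and 16.4% lower of all probes, so these counts are near the background. With median centring *Dach1* was at -0.30, *Cited2* at -0.38 and *Pax8* at -0.01, above the median of -0.45 that bright probes had under it. The call was passed by 1 gene. This was *Eya2*, a paralog of *Eya1*, with log ratios of -0.95, -0.69 and -0.69, averaging -0.78 (SE 0.062, adjusted *P* = 7.83e-06, limma), against -0.16 on the *WT* vs *WT* array. With a dye term *Eya2* was at -0.62 (adjusted *P* = 0.0412), while *Cited2*, *Dach1*, *Pax8* and *Hoxd11* no longer passed (adjusted *P* = 0.141, 0.152, 0.831 and 0.409), with *Pax8* at 0.07.

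The brightest genes of this list were *Cited2*, a paralog of *Cited1*, and *Sall2*, a paralog of *Sall1*. *Cited2* rose by 0.25 (SE 0.054, adjusted *P* = 0.00457, limma), with -0.38 under median centring, and its other probes gave 0.46 and 0.56. *Sall2* was at 0.02 (SE 0.051, adjusted *P* = 0.833). *Hoxd11*, whose paralog group is needed for the metanephric kidney, fell by 0.23 (adjusted *P* = 0.00984, limma), with an adjusted *P* of 0.0559 without array 1 and 0.0605 without array 2.

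Signals that act on the cap mesenchyme and known targets of the 9 factors formed the other list, with 13 of 13 genes matched, 8 above and 5 below 1, and a median of 0.06. By the adjusted *P* alone *Lhx1*, *Spry1*, *Fgf8* and *Itga8* rose (4 genes) and *Etv4*, *Fgfr1* and *Etv5* fell (3 genes), beside the same 13.2% and 16.4% of all probes, with *Itga8* at -0.33 and *Spry1* at -0.06 under median centring, both above its bright-probe median of -0.45. Of these *Etv4*, *Fgfr1* and *Lhx1* were called. *Etv4*, an ETS factor induced by FGF and GDNF signals, had log ratios of -0.98, -0.86 and -0.85 and fell by 0.90 (SE 0.053, adjusted *P* = 1.07e-06, limma). *Fgfr1*, a receptor of the FGF signals that keep NPCs, fell by 0.73 (SE 0.091, adjusted *P* = 0.000138, limma), and its other probes gave -0.86, -0.83 and -0.27. *Lhx1*, a homeobox gene of the renal vesicle, the first epithelial stage of the nephron, had log ratios of 0.60, 0.67 and 0.80 and rose by 0.69 (SE 0.056, adjusted *P* = 8.78e-06, limma). For *Lhx1*, *Fgf8*, *Eya1*, *Cited2*, *Spry1* and *Ccnd1* the direction given by the dye labels is opposite to the one the paper states, for *Fgfr1*, *Ncam1* and *Hbb-y* it is the same, and the reason was not tested. By qRT-PCR of the sorted cells the paper also reports lower mRNA in *Mut* for *Lhx1*, *Fgf8* and *Jag1*. Those data are not analysed here, where the brightest *Jag1* probe was at 0.44.

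With the dye term *Etv4* was at -0.62 (adjusted *P* = 0.0184) and *Lhx1* at 0.67 (adjusted *P* = 0.0159), both still called, and *Fgfr1* was at -0.60 (adjusted *P* = 0.155). With median centring *Lhx1* was at 0.19 (adjusted *P* = 0.54) and *Etv4* at -1.45 (adjusted *P* = 0.0818), neither of them called. On the *WT* vs *WT* array *Etv4* was at -0.28 and *Lhx1* at 0.02. The brightest genes of the list were *Bmp7*, a growth factor of the cap mesenchyme, at -0.14 (adjusted *P* = 0.0552, limma), and *Spry1*, an inhibitor of receptor tyrosine kinase signals, which rose by 0.56 (adjusted *P* = 4.85e-05, limma) but stood at -0.06 with median centring. With a dye term *Spry1*, *Fgf8*, *Itga8* and *Etv5* did not pass the adjusted *P*.

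Markers of other cell types were described by the same fit, in which genotype and dye cannot be told apart. Of all probes 13.2% rose and 16.4% fell by the adjusted *P* alone, and 0.551% were called higher and 1.46% lower. These shares stand beside the counts of every marker list below. Of 10 genes of the differentiating nephron, which share *Lhx1*, *Fgf8*, *Wnt4* and *Pax8* with the lists above, 7 rose by the adjusted *P* alone and 0 fell, with a median of 0.29 and *Lhx1* and *Ccnd1* (0.68) called. Their summed linear level was between 3186 and 3351 in *Mut*, between 2315 and 2446 in *WT*, and 3393 and 3370 on array 4. Of 9 stroma genes 7 rose and 1 fell, with a median of 0.37. Of these, 3 were called, among them *Col1a1* (0.89) and *Col3a1* (0.78), while the gene that fell was *Foxd1*, which defines the stromal lineage (-0.30). With a dye term *Col1a1* was at 0.46 (adjusted *P* = 0.0901, limma) and *Col3a1* at 0.51 (adjusted *P* = 0.0832), and 0 of the 3 stroma genes stayed called. The other *Col1a1* probes gave 0.33 and -0.02.

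The summed stroma level was between 7823 and 9282 in *Mut*, between 6338 and 6637 in *WT*, and 7856 and 6887 on array 4. Of 8 erythroid genes *Hba-a1*, *Hbb-y* and *Alas2* rose by the adjusted *P* alone (3 genes), and *Hba-a1*, an alpha globin, was called at 1.17 (1.39 with a dye term, adjusted *P* = 0.000167, limma, still called, and -0.22 on the *WT* vs *WT* array). *Hbb-y* and *Alas2* did not pass with a dye term (adjusted *P* = 0.149 and 0.304, limma). The summed erythroid level, set mostly by *Hba-a1*, was between 3700 and 3868 in *Mut*, between 1905 and 2081 in *WT*, and 3735 and 4216 on array 4. Of the 8 genes 3, among them *Gata1* and *Hbb-bh1*, were not well above background in either group. With a dye term the medians were 0.15 for differentiating nephron, 0.26 for stroma and 0.04 for erythroid genes. In each of these lists at least 1 *WT* channel of array 4 had a sum in or above the *Mut* range.

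Of 11 ureteric bud genes 1, *Emx2* (0.15), was higher by the adjusted *P* alone, though array 4 gave 0.21 between *WT* pools and its direction turned to -0.06 with a dye term, and 0 were called. Of 7 endothelial genes 0 passed. *Flt1* and *Emcn* were well above background in both groups and *Kdr* in *WT* only, while *Pecam1*, *Tek* and *Tie1* were so in neither. Of 5 macrophage genes *Lyz2* (-0.29) and *C1qa* (-0.16) fell by the adjusted *P* alone (2 genes), neither of them with a dye term, and 0 were called, with *Ptprc* not well above background. Of the 11 other NPC genes, *Itga8* and *Spock2* rose (2 genes) and *Ncam1*, *Uncx*, *Rspo1*, *Crym* and *Phf19* fell (5 genes) by their brightest probes. Other probes differed for some of them. *Uncx* was at -0.49 by its brightest probe and rose by 0.24 with the other (adjusted *P* = 0.00686, limma), *Ncam1* was at -0.43 against -0.14 and 0.01, *Spock2* at 0.22 against -0.01, and *Itga8* at 0.27 against 0.16 and -0.18. The 11 genes had a median of -0.16 and 0 called, beside a median of -0.10 over the 9 genes by their brightest probes. With a dye term these medians were -0.02 and -0.10, and none of the NPC genes passed the adjusted *P*. What part these other cells had in the results for the 9 genes was not tested.

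**Figure D5:**
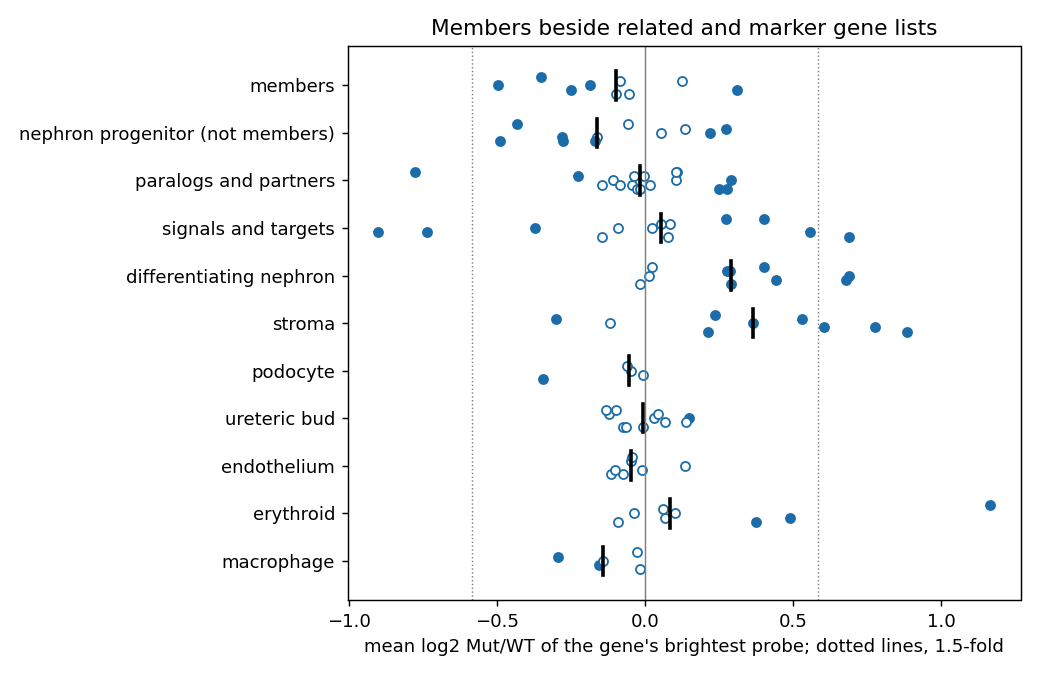
Mean log2 *Mut*/*WT* of each gene by its brightest probe (horizontal axis, log2 units), 1 row per gene list. Filled circles passed an adjusted *P* of 0.05, open circles did not, black bars mark the median and dotted lines 1.5-fold. The 9 genes have a median of -0.10 and the other NPC genes one of -0.16, which is -0.02 with a dye term, while differentiating nephron and stroma genes have medians of 0.29 and 0.37. With median centring these are 0.05 and 0.02, which is 0.49 and 0.47 above the median of the bright probes under that setting.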

How the data were processed

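Sorted EGFP-positive cells of *Mut* and *WT* kidneys were measured on 4 dual-colour Agilent arrays of 1 slide with 1 scan time, which therefore could not be tested as batches. Scanner files were deposited, made with Agilent Feature Extraction 10.7.3.1 per the file headers. For each spot the authors deposited linear intensity values of signal and background, flags, and the log10 ratio of red over green that the program forms once background is subtracted and dyes are normalized. The deposited series table held these log10 ratios in 180072 of 180072 values within 1e-06, and each of its columns had a median of 0. The normalization that the methods name, made in GeneSpring GX, was not used here.

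From median signals and median backgrounds, normexp (offset 50) and loess within arrays were run in limma 3.58.1 with R 4.3.3. Control spots and outlier spots (122 to 162 per array, of which 1 to 3 belonged to the 12 probes) were left out, spots of a probe were averaged, and ratios were turned to Cy3/Cy5. Channel levels follow Aquantile normalization. A probe was well above background if a share above 0.5 of its spots carried the flag. Log2 ratios of arrays 1 to 3 were tested against 0 with lmFit and eBayes over 41166 probes, and calls needed an adjusted *P* under 0.05 and over 1.5-fold. Both pools of an array deviated together from their group means (*r* = 0.386, 0.428 and 0.318 over probes), which bears out the pairing by array. The median signal was 65.5 to 82 in Cy3 and 84 to 92 in Cy5, and precision is limited by having 4 arrays.

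The 9 genes and all gene lists were chosen with earlier results of these data known. Named were all probes of the 9 genes, called genes of the lists (at most 2 of a marker list), the 2 brightest genes of each related list, and the 3 genes most alike in level to *Six2* and to each called probe. Other list genes were named after their values were seen. The results of some marker genes are not reported here. Symbols came from a GRCm38.p6 table, used for names only, which matched 22951 probes; *Hoxc11*, *Synpo* and *Csf1r* were not matched. The scripts were tested on simulated data. Alternatives were the deposited log ratios, an offset of 0, median centring, a dye term, the exclusion of dim probes, unpaired channels, each replicate left out, the methods' *t*-test, no fold minimum and gene values taken as the median of their probes. Counts by the adjusted *P* alone under each alternative were added after seeing the data.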

Additional observations from a re-analysis of the deposited data

How the results depend on the processing

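The 2 probes called lower became 1 with the deposited log ratios, the dye term and the methods' *t*-test at an unadjusted *P*, 0 with an offset of 0, median centring and the methods' *t*-test after Benjamini-Hochberg adjustment, 6 with no fold minimum, and 1 to 2 with each replicate left out, where the dimmer *Osr1* probe was lost without array 1. The count of 0 called higher became 1 with no fold minimum, and at an unadjusted *P* under 0.05 with the *t*-test it was 0. By the adjusted *P* alone, the 6 lower probes became 2 with the deposited log ratios, 1 with the dye term, 3 and 0 with the *t*-test before and after adjustment, 0 with an offset of 0 and with median centring, and 4 to 6 with each replicate left out, and the 1 higher probe became 0 with the deposited log ratios, the dye term, an offset of 0, median centring and the adjusted *t*-test, and 1 to 2 with each replicate left out. Of the paralogs and partners, the 1 called lower became 0 with an offset of 0, median centring and the adjusted *t*-test and 2 with no fold minimum, which raised the 0 called higher to 3. Of the signals and targets, the 2 called lower became 1 with the deposited log ratios, the dye term and the unadjusted *t*-test and 0 with an offset of 0, median centring and the adjusted *t*-test, while the 1 called higher became 0 with the last 3 of these settings, 4 with no fold minimum, and 1 to 2 with each replicate left out (2 without array 3). The median over probes raised the member genes called lower from 0 to 1 (*Meox1*). Signs turned in 4 cases, with median centring at *Eya1* (-0.34), *Pax2* (0.0151) and the brighter *Meox2* probe (-0.40), and with the dye term at *Pax2* (0.0349). Taking the channels as unpaired (no replicate block) left 2 probes called lower and 0 called higher, and took *Six2* from the 6 lower by the adjusted *P* alone, leaving 5. Over all probes an offset of 0 and median centring called 0 in either direction, with 3522 and 6028 past an unadjusted *P* of 0.05 and 1.5-fold, against 600 lower and 227 higher as reported. The deposited log ratios called 1216 lower and 1489 higher, and the dye term 177 and 146. The cause of these changes was not tested. *Pax2* and the dimmer *Meox2* probe were limited by signal near background.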
